A study of Mus musculus with 2 samples.

Results

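Promoter to promoter contacts between chromosomes were taken from RNA polymerase II ChIA-PET, an assay that ligates DNA fragments held together with the polymerase and reads both ends as a paired-end tag (PET). A contact was kept when its anchors lay on different chromosomes and each anchor came within 2.5 kb of the start of a protein-coding transcript of a GENCODE vM1 protein-coding gene, whatever its number of PETs. This kept 23086 of 44328 pairs of anchors in Ronin knockout cells and 62752 of 128267 in control cells, or 85838 of 172595 in both libraries together. An anchor is a peak called by the authors, and a pair of anchors is counted once.

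The cells were mouse embryonic stem cells that carry the tamoxifen-inducible recombinase CreERT2 and Ronin flox/flox alleles. Ronin knockout cells received tamoxifen for 4 days, and control cells of the same genotype received ethanol for 4 days. The line was derived from blastocysts, and the control carries the recombinase and the floxed alleles as well, so that loss of Ronin and exposure to tamoxifen cannot be told apart. The authors merged 2 experiments into 1 library per condition. Every interval given here therefore covers counting error only, and every test compares 2 libraries rather than the conditions. The files hold contacts and no RNA, so neither the loss of Ronin nor the stem cell identity was checked with expression. Promoters of pluripotency genes were among the anchors (29 of 30 genes), against 4 of 29 genes of differentiated tissues and 51.8% of all protein-coding genes (11520 of 22232). Cytosolic ribosomal protein genes reached a like share (83 of 85), so the count does not check stem cell identity.

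Each chromosome fills a territory of its own in the interphase nucleus, and contacts between territories are known at shared nuclear bodies. Nucleoli gather ribosomal DNA of several chromosomes, histone locus bodies form on histone gene clusters, and clusters of polymerase gather active promoters. In proximity ligation, fragments that did not touch in the nucleus can also be joined in solution, and mates of repeated sequence can be placed on the wrong copy. Ronin (Thap11) is a zinc finger protein that binds a conserved motif just upstream of the start sites of many housekeeping genes, with Hcfc1 as its partner.

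The sequences that the results below turn on are of 2 kinds. The first are stretches that are identical in both anchors of contacts with 10 or more PETs in each library, read from the NCBIM37 (mm9) reference. Not every such contact is printed, and that of Hspbap1 and Rnf111 had only 16 PETs in each library. They are shown because the mates were mapped separately. The paper ran Bowtie with the options m1, best and strata, which drop a mate that has several equally good matches. Whether mates lay inside these stretches was not tested. The partner of each anchor is named with the place of its own copy.
Gm10800, chr2:98507063-98507161, plus strand, identical to the minus strand of chr9:3000528-3000626 at the Gm10722/Gm11168 anchor: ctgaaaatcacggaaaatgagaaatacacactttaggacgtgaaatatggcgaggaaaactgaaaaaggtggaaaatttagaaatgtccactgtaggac
Tbc1d15, chr10:114690366-114690531, plus strand, identical to the plus strand of chr17:23939210-23939375 at the Srrm2 anchor: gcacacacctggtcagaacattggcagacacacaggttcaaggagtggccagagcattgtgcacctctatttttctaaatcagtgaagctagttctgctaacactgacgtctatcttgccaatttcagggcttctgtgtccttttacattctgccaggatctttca
BC031781, chr1:182784265-182784351, plus strand, identical to the minus strand of chr5:124175430-124175516 at the Kntc1/Rsrc2/Zcchc8 anchor: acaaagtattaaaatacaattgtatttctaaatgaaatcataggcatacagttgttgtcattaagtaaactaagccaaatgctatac
Hspbap1, chr16:35777253-35777370, plus strand, identical to the minus strand of chr9:70343028-70343145 at the Rnf111 anchor: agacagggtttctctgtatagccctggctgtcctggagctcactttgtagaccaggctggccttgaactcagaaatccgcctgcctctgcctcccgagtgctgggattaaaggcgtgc

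The second kind are stretches around the Ronin-binding motif within 250 bp of a start site, at promoters described below, with the motif in capitals and 15 bases on each side.
Zc3h11a (locus of Snrpe), chr1:135558015-135558059, plus strand: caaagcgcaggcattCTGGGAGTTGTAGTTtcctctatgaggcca
M6pr (locus of Phc1), chr6:122258636-122258680, minus strand: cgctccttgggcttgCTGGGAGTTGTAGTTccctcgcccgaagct
M6pr (locus of Phc1), chr6:122258604-122258648, minus strand: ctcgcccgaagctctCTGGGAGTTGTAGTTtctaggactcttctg
Jarid2, chr13:44826080-44826124, plus strand: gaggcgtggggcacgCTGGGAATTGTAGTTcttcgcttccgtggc
Ipo7 (locus of Zfp143), chr7:117161702-117161746, minus strand: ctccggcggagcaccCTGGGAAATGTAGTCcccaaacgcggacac
Nutf2 (locus of Thap11), chr8:108384421-108384465, plus strand: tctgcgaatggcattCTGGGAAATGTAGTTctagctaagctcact
Snx14, chr9:88333990-88334034, plus strand: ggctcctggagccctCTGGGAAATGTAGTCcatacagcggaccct
Ubxn4, chr1:130140631-130140675, minus strand: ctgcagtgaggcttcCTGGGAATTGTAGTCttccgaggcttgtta

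The question set by the design is whether promoter contacts depend on Ronin. Knockout cells held 23086 promoter pairs between chromosomes and control cells 62752, so that the knockout had 36.8% of the control number (exact 95% interval 36.2 to 37.3). Counted as PETs, the values were 29030 in knockout and 70473 in control cells, or 41.2%. All other classes of pairs were also fewer in the knockout library. Interchromosomal pairs with 1 promoter anchor stood at 31.1% of control (13970 in knockout and 44941 in control), and those without a promoter at 27.1% (2235 and 8244, knockout first). Promoter pairs over 1 Mb apart on the same chromosome stood at 40.2% (1690 in knockout, 4209 in control), and those up to 1 Mb apart at 51.5% (933 in knockout, 1811 in control). No sequencing depth of the libraries is in the files, so a ratio contains any difference in library size.

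Classes were also compared within the libraries, although distinct pairs and called peaks need not scale with depth alike in every class. Promoter to promoter pairs made up 58.8% of interchromosomal pairs in knockout cells and 54.1% in control cells (odds ratio 1.21, 95% interval 1.18 to 1.24, two-sided Fisher's exact test, p = 1.64e-57). This order turned round among pairs with at least 2 PETs, where the odds ratio was 0.610 (Fisher's exact test, p = 8.96e-07). More of the knockout anchors lay at promoters to begin with, 50.2% (8803 of 17539) against 38.9% (10792 of 27757) in control cells, and its anchors were wider, with a median of 4739 bp against 3278 bp in control cells. Their part in the difference was not tested. The knockout to control ratio was lower between chromosomes than for promoter pairs over 1 Mb apart (odds ratio 0.916, interval 0.864 to 0.971, p = 0.00361) and lower than for those up to 1 Mb apart (odds ratio 0.714, interval 0.659 to 0.774, p = 7.34e-16, Fisher's exact test). Without anchors over 30 kb, the comparison with pairs over 1 Mb apart no longer passed (odds ratio 0.954, p = 0.308, Fisher's exact test).

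**Figure D1:**
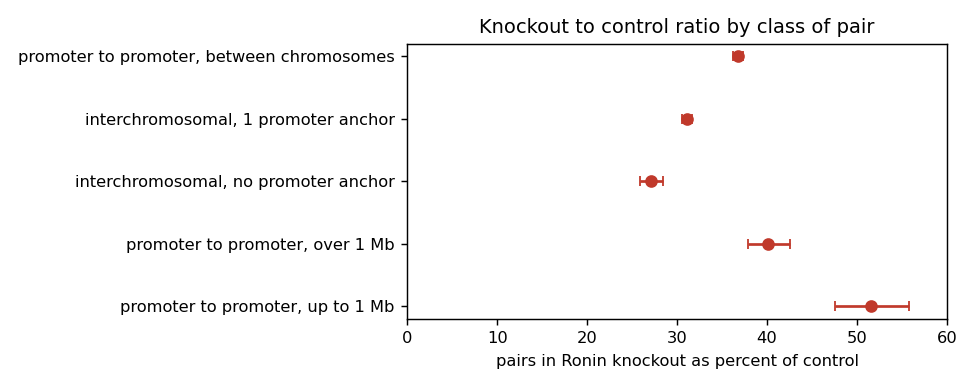
Pairs of anchors in the Ronin knockout library as percent of the control library, by class of pair. Points are ratios and bars exact 95% intervals for counting error only; promoter pairs between chromosomes stand at 36.8%, above the other interchromosomal pairs and below promoter pairs within a chromosome.

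Nearly all of these contacts rested on a single PET, which was so for 22738 pairs in knockout (98.5%) and 61697 in control cells (98.3%). Only 348 knockout and 1055 control pairs had 2 or more PETs, 67 knockout and 151 control pairs had 3 or more, and 24 in each library had 10 or more. The paper called a contact high-confidence at 3 independent PETs. It left contacts between chromosomes out of its later analyses, citing their greater noise. The contacts kept here spread over 9687 genes in knockout and 11120 genes in control cells, of 22232 protein-coding gene names, and 9287 genes had contacts in both. An anchor had a median of 3 partners in knockout and 5 in control cells, and 28.2% of knockout anchors and 17.8% of control anchors had 1 partner.

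Overlapping anchors of both libraries were merged into 10131 promoter loci, and partner loci were counted for each. The loci with most partners were nearly the same in both libraries: 8 of the first 10 and 35 of the first 50 were shared. The locus with most was Gm10800, an annotated gene of unknown role on chromosome 2 in sequence of satellite type (described below), with 511 partners in knockout and 1101 in control cells. Histone gene clusters of chromosome 13 followed. The cluster with Hist1h1a, Hist1h1c, Hist1h3a and Hist1h4a, linker and core histones of replicating cells (chr13:23826000-23865286), had 183 partners in knockout and 491 in control cells. The cluster with Hist1h2ai and Hist1h4j (chr13:21801065-21853374) had 125 in knockout and 344 in control cells. Clusters with Hist1h2ad (90 in knockout, 261 in control) and with Hist1h2ag (81 in knockout, 279 in control) were also among the first 10 of both libraries.

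Other loci with many partners held between 1 and 15 genes. A locus of 15 genes on chromosome 19 (chr19:8765142-8927966), with Nxf1, the main mRNA exporter, Polr2g, a subunit of the polymerase itself, and Slc3a2, an amino acid transporter chain, had 136 partners in knockout and 364 in control cells. The metallothionein genes Mt1 and Mt2, which encode metal-binding proteins (chr8:96690164-96719130), had 103 in knockout and 266 in control cells. The locus of Atp5b, a subunit of ATP synthase, with Baz2a, Naca and Ptges3 had 66 and 203, and that of Rad51c, a DNA repair gene, and Tex14 had 69 and 201, knockout before control. The Lmna locus on chromosome 3, with the lamin A gene, had 74 in knockout and 151 in control cells. Gm10801, next to Gm10800, had 87 in knockout and 244 in control cells. Apart from Mreg (111 in knockout, 106 in control), each of these loci had fewer partners in the knockout. The partners of each sat on 17 to 20 chromosomes.

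The number of partners followed the width of the anchor. Across anchors, Spearman's rho between width and partners was 0.789 in knockout (7897 anchors) and 0.870 in control cells (10073 anchors), as a description of points that share a library. The widest 10% of anchors, with a median width of 40.2 kb in knockout and 37.3 kb in control cells, had a median of 17 partners in knockout and 42 in control cells. These anchors held 35.0% of all partner ends in knockout and 42.7% in control cells. The narrowest 10%, about 1.59 kb wide in knockout and 1.38 kb in control cells, had a median of 1 partner in both.

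Against the share over all loci, few loci changed. Of 3988 loci with at least 10 partners over both libraries, 3796 had fewer partners in the knockout, 117 had more and 75 had the same number. Relative to the knockout share of 26.9% of all partners, 9 loci were lower in the knockout (0.226% of those tested) and 10 were higher (0.251%, two-sided exact binomial test, Benjamini-Hochberg adjusted p under 0.05). Across the 7116 loci with partners in both libraries, Spearman's rho between the libraries was 0.770.

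The lowest by p was Zmynd8, which encodes a reader of acetylated chromatin (chr2:165629396-165690718). It had 1 partner in knockout and 147 in control cells (exact test, adjusted p = 1.41e-15). The locus of Spen, a transcriptional repressor that acts in X inactivation, and Fblim1 had 19 partners in knockout and 164 in control cells (exact test, adjusted p = 4.75e-05). Zfp202, a zinc finger gene, had 3 in knockout and 62 in control cells, and Nedd4, a ubiquitin ligase, had 10 in knockout and 97 in control cells. Dst, a cytoskeletal linker, had 0 in knockout and 35 in control cells. St14, a membrane serine protease, had 0 and 34, and Rimbp3, a testis gene, had 0 and 32, knockout before control. Bcat2, the mitochondrial aminotransferase of branched-chain amino acids, shared a locus with Hsd17b14 that had 5 partners in knockout and 63 in control cells. Pias2, a SUMO ligase, had 3 in knockout and 49 in control cells.

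Of the loci that were higher, Mreg, melanoregulin, had 111 partners in knockout and 106 in control cells (exact test, adjusted p = 5.81e-11). Mga, a partner of Max, had 38 in knockout and 15 in control cells (exact test, adjusted p = 1.44e-08). Tmem167b had 15 in knockout and 3 in control cells, and Derl3, of endoplasmic reticulum protein degradation, had 19 in knockout and 9 in control cells. The locus of C1qbp, Nup88 and Rpain had 29 in knockout and 24 in control cells. The imprinted gene Peg3 had 23 in knockout and 17 in control cells. Cops7a, of the COP9 signalosome, had 19 in knockout and 14 in control cells, and 4930473A06Rik had 11 in knockout and 4 in control cells. Gm10800 was higher only relative to the share over all loci, since its 511 knockout partners were 46.4% of its control number (exact test, adjusted p = 0.00874).

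These calls moved with the borders of the peaks. At 3 of the 9 lower loci the knockout had no anchor within 2.5 kb of a start site, and at 5 of the 9 the libraries differed in their number of promoter anchors. When every anchor that overlaps a promoter locus was counted, an alternative chosen after seeing the data, 0 of 4140 loci were lower and 1 was higher, by the same test. Zmynd8 then had 57 partners in knockout and 150 in control cells (exact test, adjusted p = 1). The Spen locus had 49 in knockout and 167 in control cells, and Nedd4 had 27 and 101. Mreg had 113 in knockout and 282 in control cells (exact test, adjusted p = 1), and Mga had 40 and 74. Peg3 had 23 in knockout and 18 in control cells (exact test, adjusted p = 0.175). Cops7a and 4930473A06Rik kept the same numbers, with an adjusted p of 0.218 each in this exact test. Gm10800 had 525 in knockout and 1129 in control cells (exact test, adjusted p = 0.0888). The 1 locus still called was on the mitochondrial genome.

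**Figure D2:**
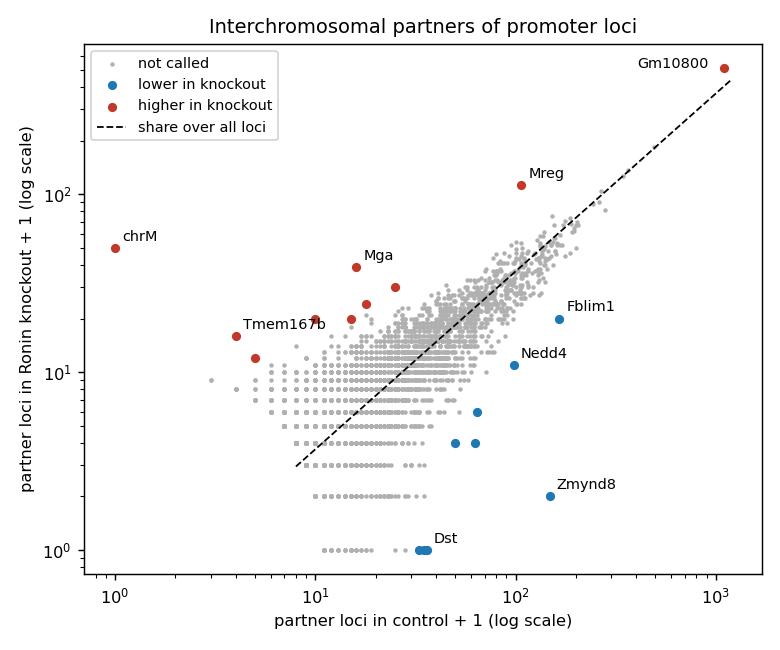
Partner loci on other chromosomes at the 3988 promoter loci with at least 10 partners over both libraries, Ronin knockout (vertical) against control (horizontal), 1 added to each and both axes on a log scale. The dashed line is the share over all loci; 9 loci in blue were lower and 10 in red were higher in the knockout.

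The mitochondrial genome counted as a chromosome under the rule, and its genes of the respiratory chain gave a few contacts with nuclear promoters. In the knockout, the anchor with mt-Nd1 and mt-Co1 (chrM:4-6552) had 27 partners and a separate anchor with mt-Nd4 and mt-Cytb (chrM:10853-16130) had 49. In the control, the mt-Nd1 anchor (chrM:2-6535) had 100 partners and the mt-Cytb region had no anchor. Nuclear anchors of 5 to 7 kb had a median of 2 partners in knockout and 4 in control cells, so the mitochondrial anchors had many for their width. None of these pairs shared 50 identical bases. The mitochondrial total of 76 in knockout and 100 in control cells was 76.0% of control (interval 55.6 to 103), and chromosome M was the 1 chromosome of 21 called higher in the knockout (4.76%, adjusted p = 7.25e-05, exact binomial test).

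The nuclear chromosomes had similar knockout to control ratios. The 20 nuclear chromosomes had between 34.4% (chromosome 15, 1678 pairs in knockout and 4879 in control) and 38.5% (chromosome 10, 2325 in knockout and 6039 in control) of their control pairs. None of them differed from the share over all pairs by the exact binomial test (0 of 21 chromosomes lower, 0%, smallest adjusted p 0.181 among the nuclear ones, with 1 of 20 at an unadjusted p under 0.05). Chromosome 11 had most pairs, 4293 in knockout and 11774 in control cells. Chromosome 8 had most per protein-coding gene, 2.98 in knockout and 7.83 in control cells, and chromosome X had the fewest, 1.18 in knockout and 3.40 in control cells.

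Chromosome pairs followed their totals closely. For each of 190 pairs of nuclear chromosomes, the number of contacts was set against the number given by the totals of its 2 chromosomes. This ratio ranged over 0.680 to 1.31 in knockout and 0.858 to 1.13 in control cells. It lay within 10% of 1 for 72.1% of chromosome pairs in knockout and 90% in control cells, and the Poisson 95% interval left out 1 for 5 pairs in knockout and 4 in control cells. The dispersion of the counts about the totals was 0.973 in knockout and 0.941 in control cells, where 1 is that of a Poisson count. Pearson's r between the 190 ratios of the libraries was -0.03, as a description.

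In the knockout, the ratio was highest for chromosomes 3 and 19 (98 pairs, ratio 1.31, interval 1.07 to 1.60), which in the control had 173 pairs and a ratio of 0.892. Chromosomes 9 and 16, 10 and 15, 6 and X, and 17 and 18 followed at 1.20, 1.20, 1.19 and 1.19. The lowest knockout ratios were those of chromosomes 18 and X (20 pairs, ratio 0.680), 12 and 16 (0.747), 15 and 18 (0.769), 5 and X (0.791) and 6 and 8 (0.822). In the control, the highest were chromosomes 14 and 18 (123 pairs, ratio 1.13), 14 and X, 11 and 17 (646 pairs, both at 1.12), 3 and 18 (1.12) and 6 and X (1.11). The lowest were 15 and X (106 pairs, ratio 0.858), 4 and 16 (0.871), 3 and X (0.872), 10 and 15 (0.878) and 12 and 17 (0.883). Chromosomes 10 and 15 were thus among the 5 highest in the knockout and among the 5 lowest in the control. In the test of knockout against control, 0 of 210 chromosome pairs were lower and 0 were higher (0% each, exact binomial test, smallest adjusted p 0.101, with 11 at an unadjusted p under 0.05).

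**Figure D3:**
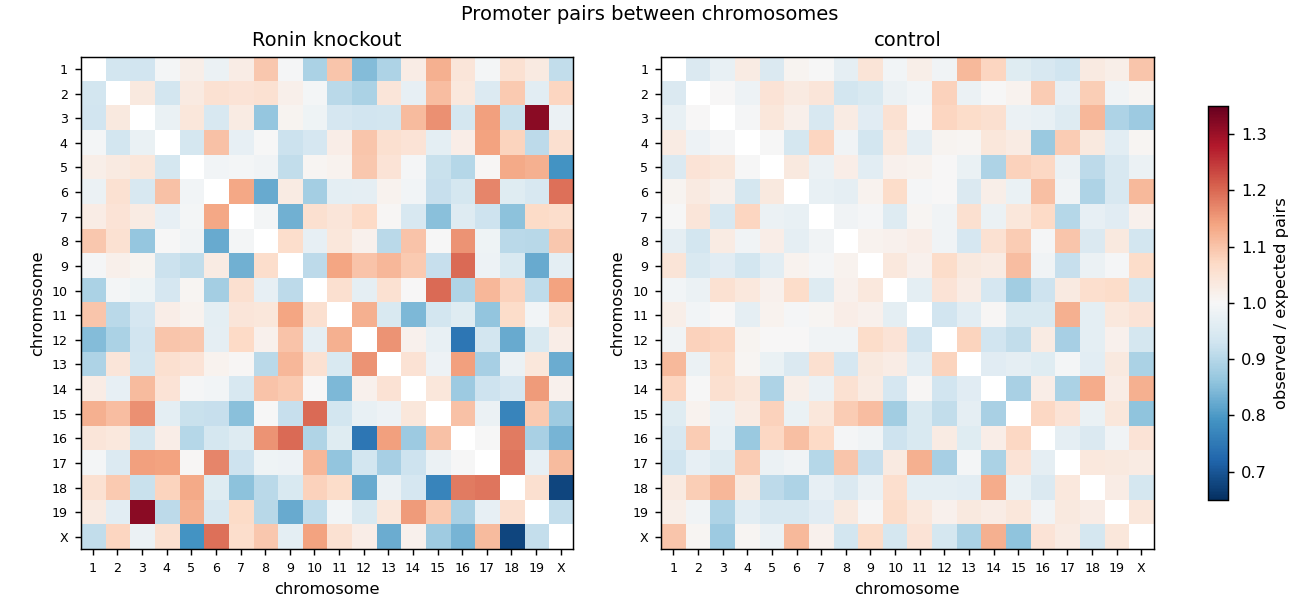
Promoter pairs between each 2 nuclear chromosomes over the number given by the totals of each chromosome, Ronin knockout left and control right. Most values lie near 1, with the widest range, 0.680 to 1.31, in the knockout, which has fewer pairs.

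Chromosomes 12, 15, 16, 18 and 19 can carry nucleolus organisers in mice, the ribosomal DNA arrays that meet in nucleoli. Among themselves they had 443 promoter pairs in knockout, 0.960 of the number given by their totals (Poisson 95% interval 0.872 to 1.05), and 1292 in control cells, 0.999 of that number (0.945 to 1.05). Mouse chromosomes have their centromere at 1 end, where the coordinates begin. Anchors under 20 Mb from that end met each other 251 times in knockout (ratio 1.11, interval 0.976 to 1.25) and 634 times in control cells (ratio 1.01, interval 0.932 to 1.09). The intervals of these ratios hold 1. With PETs counted in place of pairs, the ratio of the nucleolus organiser chromosomes was 1.20 (1.09 to 1.32) in knockout and 1.11 (1.05 to 1.17) in control cells, and both intervals leave out 1.

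Single contacts seldom came back. Of the 62752 control pairs, 765 (1.22%, exact 95% interval 1.13 to 1.31) were found again in the knockout with both anchors overlapping. For promoter pairs over 1 Mb apart on the same chromosome the share was 1.81% (76 of 4209), which was larger (odds ratio 0.671, interval 0.529 to 0.851, p = 0.00160, Fisher's exact test). Without pairs that share 100 identical bases, that difference did not pass (odds ratio 0.939, p = 0.65, Fisher's exact test). For promoter pairs up to 1 Mb apart the share was 11.04%, and for other interchromosomal pairs 0.570%.

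The share rose steeply with the PETs of the pair. Leaving out the satellite loci, 0.791% of control pairs with 1 PET were found again (478 of 60458), where the partner totals of the knockout loci give 0.685%. With 2 PETs the share was 6.01% (43 of 716, 2.87% from the totals), and with 3 to 9 PETs it was 49.2% (31 of 63, 2.67% from the totals). With 10 or more PETs it was 90% (18 of 20, 0.470% from the totals). These numbers compare the files with a product of partner totals and are a description.

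**Figure D4:**
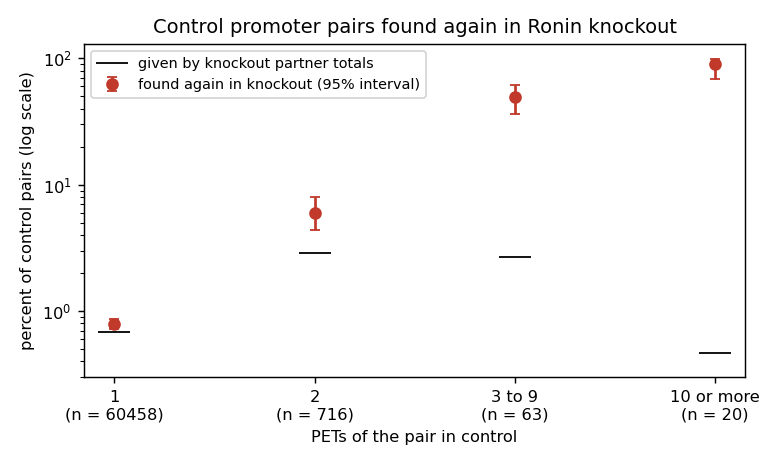
Percent of control promoter pairs found again in the Ronin knockout library, by the PETs of the pair in control, without satellite loci, on a log scale. Points are shares with exact 95% intervals and dashes the percent given by the partner totals of the knockout loci; the share climbs to 90% at 10 or more PETs and lies near the dash at 1 PET.

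The contacts with most PETs were between anchors at or near satellite-like sequence. Mouse centromeric heterochromatin is built of a major satellite, a short unit repeated in tandem. In the anchors at Gm10722, Gm11168, Gm10717 and Gm10718 near the start of chromosome 9, between 72.6% and 95.4% of bases were identical to the base 1 satellite unit further on, and at Gm10800 46.8% in knockout and 46.3% in control cells. At Gm10801 it was 30.3% in knockout and 30.2% in control cells, below the 40% taken as satellite, and that locus was counted with them for its place within 10 kb of Gm10800. Gm10800 and the Gm10722/Gm11168 locus were joined by 3631 PETs in knockout and 4945 in control cells. Gm10801 and that locus were joined by 399 in knockout and 615 in control cells, and Gm10800 and the Gm10717/Gm10718 locus by 801 in knockout and 0 in control cells. The last locus had no anchor among the control promoter pairs. The longest identical stretch between the loci of the first of these pairs is the 99 bases printed above, which lie in the coding sequence of Gm10800 as annotated and in an exon of the lincRNA Gm16869.

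Apart from satellite loci, 24 locus pairs had 10 or more PETs in a library, and 20 of them had PETs in both. Together they held 684 PETs in knockout and 969 in control cells, or 70.6% of control (exact 95% interval 63.9 to 77.9). PETs over all promoter pairs stood at 41.2%, but that value includes the satellite loci, so the sets are unlike. Satellite locus pairs with 10 or more PETs in a library held 4883 PETs in knockout and 5560 in control cells. Fewer PETs were seen in the knockout at 17 of the 24 and more at 5. These loci were chosen for their PETs, so the ratio is a description.

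The first of them joined Mob4, of a phosphatase complex, on chromosome 1 to the locus of Tceb2 (elongin B) and Prss33 on chromosome 17, with 105 PETs in knockout and 122 in control cells. The contact took 99.1% of the PETs of the Mob4 locus in knockout and 93.1% in control cells. Ccne2 (cyclin E2) and Trp53inp1 on chromosome 4 were joined to Use1 and Nr2f6 on chromosome 8 by 81 PETs in knockout and 87 in control cells. Hexim1, an inhibitor of the elongation kinase P-TEFb, with Acbd4 on chromosome 11, was joined to Lsm4, an RNA-binding protein of the spliceosome, on chromosome 8 by 74 in knockout and 147 in control cells. Tbc1d15, a regulator of Rab GTPases, on chromosome 10 was joined to Srrm2, a splicing protein, on chromosome 17 by 70 in knockout and 114 in control cells.

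Further contacts were fewer in the knockout. Sec24a and 0610009B22Rik with Dbf4 (activator of a replication kinase) and Slc25a40 had 53 PETs in knockout and 120 in control cells. BC031781 with Kntc1, Rsrc2 and Zcchc8 had 40 in knockout and 66 in control cells. Hmox2, a haem oxygenase, with Ppp4r2, a phosphatase subunit, had 36 in knockout and 52 in control cells, and Dmtf1 with Rab8a had 32 and 38. Some contacts were seen in 1 library only: Kpna1 with Tra2a had 23 PETs in knockout and 0 in control cells, Clcn7 with Calr3 had 14 and 0, and Uqcrb with Pcolce had 0 and 18. Wdr66 with Cherp had 20 in knockout and 2 in control cells.

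These contacts joined anchors with long identical stretches. Among the 24 locus pairs, 22 shared at least 50 identical bases and 8 at least 100, with a median of 87 and a maximum of 169. By pair of anchors, 50 identical bases were shared by 87.5% of knockout and 91.7% of control pairs with 10 or more PETs, against 43.6% of knockout and 45.3% of control pairs with 1 PET. At 3 to 9 PETs the share was 74.4% in knockout (32 of 43) but 40.9% in control cells (52 of 127), so it did not climb with PETs throughout in the control. The pairs with 10 or more PETs were narrower, with a median summed width of 31.6 kb in knockout and 33.8 kb in control cells, against 48.5 kb in knockout and 50.7 kb in control cells for those with 1 PET. For 100 identical bases the shares were 25.0% in knockout and 33.3% in control cells at 10 or more PETs, against 1.5% in knockout and 1.13% in control cells at 1 PET. Among all pairs with at least 2 PETs, 7.47% in knockout (26 of 348) and 6.26% in control cells (66 of 1055) shared 100 identical bases.

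The annotation of these stretches was of several kinds. The 134 bases shared by the Mob4 and Tceb2 loci lie in Gm16581, an annotated pseudogene, on chromosome 1 (chr1:55184431-55184564) and in an exon of Srrm2 on chromosome 17 (chr17:23958413-23958546). The 164 bases shared by the Hexim1 and Lsm4 loci lie in the untranslated part of Hexim1 (chr11:102980876-102981039) and outside annotated genes on chromosome 8 (chr8:73204837-73205000). The 169 bases shared by Hmox2 (chr16:4756933-4757101) and Ppp4r2 (chr6:100783638-100783806) lie in untranslated exons of both. The stretch printed for Tbc1d15 and Srrm2 lies outside annotated genes on both chromosomes, that of BC031781 in an intron, and that of Hspbap1 and Rnf111 in introns of both. The part of shared sequence in these contacts was not tested beyond the counts given.

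Grouped by function, the promoters had knockout to control ratios near the common one, with ribosomal protein genes at the low end. Over all promoter loci, the knockout had 36.8% of the control pairs (23081 in knockout, 62669 in control, each pair of loci counted once). Fewer partners were seen in the knockout at 8267 of all 10131 promoter loci, and at 3796 of the 3988 tested. Cytosolic ribosomal protein genes, with anchors at 83 of 85 genes, had 1631 pairs in knockout and 5460 in control cells, or 29.9% (interval 28.2 to 31.6), and 84 of their 85 loci had fewer partners. Of the 82 of these loci that were tested, none was called in either direction, against 0.226% lower and 0.251% higher over all tested loci, and the median of their knockout to control ratios was 0.289, against 0.368 over all tested loci. Rpl3 had 47 partners in knockout and 157 in control cells. Pairs of 2 ribosomal protein loci numbered 37 in knockout, 1.27 times the number given by their totals (Poisson interval 0.895 to 1.75), and 138 in control cells, 1.14 times (0.957 to 1.346). Of 170 such locus pairs, 5 were seen in both libraries, and none held more than 2 PETs.

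Replication-dependent histone genes, packed into a few clusters, had anchors at all 67 genes and 20 loci. All 20 loci had fewer partners in the knockout, as did 8267 of all 10131 promoter loci. The list had 834 pairs in knockout and 2414 in control cells, or 34.5% of control (31.9 to 37.4). This value was 12.9% among pairs with at least 2 PETs and 57.4% (52.1 to 63.1) among pairs with the authors' adjusted p under 0.05, where all promoter pairs stood at 33.0% and 40.7%. Histone loci of different chromosomes met in 6 locus pairs in knockout, 2.62 times the number given by their totals (0.963 to 5.71), and in 11 in control cells, 1.63 times (0.812 to 2.91). Only 1 locus pair was seen in both, that of the Hist1h2ai cluster with Hist3h2a and Hist3h2ba on chromosome 11, with 3 PETs in knockout and 2 in control cells and a shared stretch of 91 identical bases. The Hist1h1a cluster and the locus of Hist2h2ab, Hist2h2ac and Hist2h2be on chromosome 3 had 4 PETs in knockout and 0 in control cells. These 2 loci share 71 identical bases. The locus of Hist1h2ac and Hist1h1t was joined to Rec8, the meiotic cohesin subunit, on chromosome 14 by 15 PETs in knockout and 24 in control cells. The anchors of that contact share 71 identical bases, a run of TG and GA repeats.

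Genes of the other housekeeping lists lay between 33.9% and 40.6%. Oxidative phosphorylation genes stood at 33.9% of control (673 in knockout, 1986 in control), with Atp5b at 66 and 203 partners and Ndufaf3, an assembly factor of complex I, at 45 and 122, knockout before control. Nucleolar proteins stood at 34.2%, with Nhp2 at 66 in knockout and 172 in control cells and Ncl (nucleolin) at 44 and 176. Translation factors stood at 34.9%, with Eef1a1, elongation factor 1A, at 66 in knockout and 199 in control cells and Etf1, the release factor, at 60 and 191. Splicing factors stood at 37.4%, with Hnrnpul2 in the Nxf1 locus and Hnrnpa2b1 at 67 in knockout and 188 in control cells. Chaperones stood at 37.6%, with Hspa9, in the locus of Etf1, and Hspa8, over 2 loci, at 50 in knockout and 141 in control cells.

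The proteasome list stood at 37.9%, with Psmb3 at 28 in knockout and 90 in control cells and Psma3 at 29 and 66. The mitochondrial ribosome stood at 39.4%, with Mrps18b at 51 in knockout and 131 in control cells and Mrpl49 at 40 and 131. The tRNA synthetases stood at 40.6%, with Qars, in the locus of Ndufaf3, and Aars at 40 in knockout and 85 in control cells. With 24 to 69 loci tested in each of these 8 lists, 0 were called in either direction, and over all tested loci 0.226% were lower and 0.251% higher, so that counts of this size say nothing about the members. Among zinc finger genes (37.1%), 1 of 112 tested loci was called, Zfp202, which was lower. Zfp553 and Zfp771, in 1 locus, had 51 partners in knockout and 149 in control cells.

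**Figure D5:**
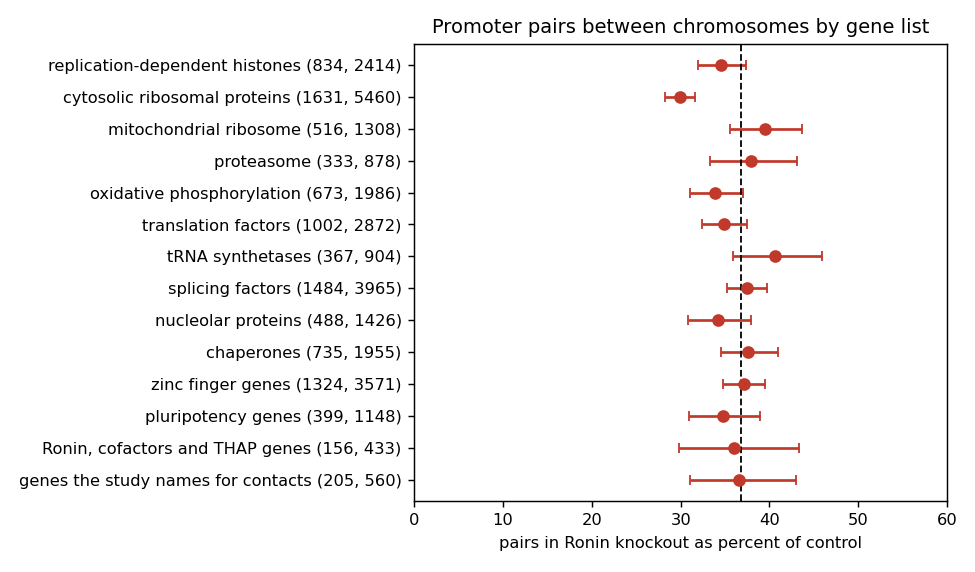
Promoter pairs between chromosomes in the Ronin knockout library as percent of control, by gene list, with the number of pairs in knockout and then in control in brackets. Bars are exact 95% intervals for counting error and the dashed line is the value over all promoter loci, 36.8%; ribosomal protein genes, at 29.9%, lie lowest, and the last list holds 17 genes of loci the study examined, controls included.

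Pluripotency genes stood at 34.8% (399 in knockout, 1148 in control, interval 30.9 to 39.0). Jarid2, a Polycomb cofactor, had 33 partners in knockout and 123 in control cells, and Tet1, which oxidises methylated cytosine, had 29 and 127, each summed over 2 loci. Nanog had 30 in knockout and 70 in control cells. They met each other in 1 locus pair in knockout, Sall4 with Trim28, and in 7 in control cells, among them Sall4 with Nanog, each by 1 PET. Olfactory receptor genes, known for their expression in sensory neurons of the nose, had anchors at 9 of 1087 genes. The one with most partners was Olfr1373, which shares a locus with Ppp2ca, with 22 in knockout and 47 in control cells, and next Olfr90 had 1 and 12. Among genes of differentiated tissues, Acta1 (muscle actin) had 4 in knockout and 10 in control cells and Gfap (glia) had 3 and 5.

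Ronin, its cofactors and other THAP genes stood at 36.0% (156 in knockout, 433 in control, interval 29.8 to 43.4). All 13 loci had fewer partners in the knockout, as did 8267 of all 10131 promoter loci. Zfp143, which binds the same motif, had 28 in knockout and 94 in control cells. Thap11, the Ronin gene itself, had 26 in knockout and 69 in control cells, in a locus with Nutf2, Edc4 and Cenpt. Hcfc1 had 21 in knockout and 42 in control cells, and Thap1 had 6 and 45. None of these loci met another of the list on a different chromosome, where their totals give only 0.230 pairs in knockout and 0.642 in control cells.

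A list of 17 genes of single loci that the study examined stood at 36.6% (205 in knockout, 560 in control, interval 31.0 to 43.0). It does not hold every such gene, and it pools genes of loops at Ronin sites with others that served as controls without Ronin, such as Myc and Phc1. Phc1, a Polycomb subunit, had 53 partners in knockout and 100 in control cells. Mmachc, of cobalamin metabolism, had 27 and 104, Snx14, a sorting nexin, had 24 and 78, and Slc25a39, a mitochondrial carrier, had 15 and 62, knockout before control. Ubtf, the transcription factor of ribosomal DNA, had 7 in knockout and 28 in control cells, Pou2f1 had 10 and 23, and Max, the partner of Myc, had 10 and 22. Gpbp1l1 had 7 in knockout and 21 in control cells, Gsk3a, a kinase, had 6 and 16, and Ubxn4 had 7 and 13. Toe1 had 9 in knockout and 8 in control cells, Fntb had 3 and 6, and Zfp949 had 3 and 3. Myc (0 in knockout, 4 in control), Rabac1 (0 and 2) and 4930430F08Rik (0 and 1) had no partner in the knockout. Max met Phc1, and Mmachc met Gsk3a, by 1 PET each in the knockout and by none in the control.

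The Ronin-binding motif was searched as exact matches on both strands. It lay within 250 bp of 429 of 45974 start sites of protein-coding transcripts (0.933%). That share is per start site, while an anchor can hold several start sites, so it cannot be set against the shares of anchors. Of the member anchors, 2.56% in knockout (202 of 7897) and 2.49% in control cells (251 of 10073) held it anywhere, and 2.03% and 2.05% held it within 250 bp of a start site. Pairs with the motif at both anchors numbered 27 in knockout and 90 in control cells, or 30% of control (interval 18.8 to 46.6). With the motif at 1 anchor there were 1698 in knockout and 4074 in control cells, or 41.7% (39.4 to 44.1), and with none 21361 in knockout and 58588 in control cells, or 36.5% (35.9 to 37.0). The ratio with the motif at both anchors against neither did not differ beyond counting error (odds ratio 0.823, interval 0.535 to 1.27, p = 0.404, two-sided Fisher's exact test). With the motif required within 250 bp of a start site, the odds ratio was 1.04 (16 pairs in knockout, 42 in control). The paper reports Ronin at far more promoters than hold an exact match, so anchors without the motif are not free of Ronin. Whether the ratio differs with Ronin binding was not tested.

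Pairs with the motif at both anchors stood at 0.831 of the number given by the partner totals in knockout (Poisson interval 0.547 to 1.21) and at 1.28 of it in control cells (1.03 to 1.57). Anchors with the motif were wider, with a median of 13.0 kb in knockout and 7.15 kb in control cells, against 8.72 kb in knockout and 6.36 kb in control cells for anchors without it. Their partners per kb were 0.461 in knockout and 1.24 in control cells, against 0.441 in knockout and 1.11 in control cells without it. Among the 191 loci with the motif near a start site, the partners summed to 1308 in knockout and 3331 in control cells, or 39.3% of control (36.8 to 41.9). The Snrpe and Zc3h11a locus, printed above, had 66 partners in knockout and 154 in control cells, and the Phc1 locus, with 2 copies of the motif 80 and 112 bases upstream of the start of M6pr, had 53 and 100. Jarid2, with a copy 41 bases upstream, had 27 in knockout and 109 in control cells at the locus that holds the motif.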

How the data were processed

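Per the labels, RNA polymerase II ChIA-PET libraries were made from 1 line of CreERT2; Ronin flox/flox embryonic stem cells, and the submitters' processing notes name cutadapt, Bowtie 1.1.1, MACS 1.4.2 and the genome build mm9. The authors merged 2 experiments per condition and deposited 1 table per condition. Mates were mapped separately, and PETs within a chromosome that spanned under 4 kb were dropped. The deposited values are raw counts of PETs per pair of peaks and counts of PETs per peak. Each pair also has a signed distance between peaks, deposited as a score in bp, and the authors' hypergeometric p-value, raw and adjusted. The authors' distance was not used, and their p-values were used in an alternative only.

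Anchors were matched to start sites of GENCODE vM1 on NCBIM37, whose chromosome lengths hold every anchor. Members and gene lists were chosen with earlier results of these data known. Pairs were counted once. Ratios have exact conditional binomial intervals, shares Clopper-Pearson intervals and odds ratios Woolf intervals, all at 95%. Loci are anchors of both libraries merged at 1 bp of overlap; those with at least 10 partners, chromosomes and chromosome pairs were tested by exact binomial tests with Benjamini-Hochberg adjustment. Numbers given by totals came from iterative proportional fitting or products of partner totals. A locus counted as satellite where at least 40% of an anchor's bases recurred 1 satellite unit on, or within 10 kb of such an anchor. Named were the 10 loci with most partners and the 10 pairs with most PETs in each library, called loci, 2 members per list, 17 genes of loci the study examined and the 5 highest and lowest chromosome pairs. Further heavy pairs, Nanog, Hcfc1 and Thap1 were named after their values were seen. A list member that this rule names is not reported here. The locus test was checked on simulated data. Python 3.11.15, numpy 2.4.6, pandas 2.3.3, scipy 1.17.1 and matplotlib 3.10.9 were used.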

Additional observations from a re-analysis of the deposited data

How the results depend on the processing

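No paired analysis was possible because each condition had 1 merged library. Counting intervals leave out the spread between experiments, contacts of 1 PET limit what single loci can show, and the tamoxifen treatment goes with the knockout. Of 164 values of the comparisons under alternatives, 125 kept their direction and side, 34 counts or ratios moved, 2 comparisons lost their call and 3 turned round; the cause was not tested.

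With pairs of at least 2 PETs, the knockout held 33.0% of control, the promoter share had an odds ratio of 0.610, 2 loci were lower and 0 higher, 0 chromosomes were higher, 6.64% of control pairs were found again and the nucleolus organiser ratio in control was 1.08; Gm10800 turned lower (15.3% of its partners in knockout). With PETs counted, the knockout held 41.2%, 17 loci were lower and 20 higher, 17 chromosomes lower and 3 higher, 6 chromosome pairs lower and 1 higher. These calls are relative to the share over all PETs. That share includes the heavy satellite pairs between chromosomes 2 and 9, which held 4883 PETs in knockout and 5560 in control cells. Whether the calls remain without the satellite pairs was not tested. With PETs counted, 10.6% were found again, with an odds ratio of 1.005 against promoter pairs over 1 Mb apart. The nucleolus organiser ratios, whose totals include the same satellite PETs, were 1.20 in knockout and 1.11 in control. Without pairs sharing 100 identical bases, the odds ratio of being found again was 0.939, and the share of such pairs is 0 by construction. Without anchors over 30 kb, the knockout held 39.8%, the odds ratio against pairs over 1 Mb apart was 0.954, 26 loci were lower and 24 higher, 0.720% were found again, and 4.15% of control pairs with at least 2 PETs shared 100 bases. There, the C1qbp locus turned lower (0% of its partners in knockout). With the authors' adjusted p under 0.05, the knockout held 40.7%, 2 chromosomes were higher, 0.663% were found again, and 20.2% of Gm10800 partners were in knockout, which turned it lower. With a promoter window of 1 kb, 1 chromosome was lower, and with 5 kb Tmem167b turned lower (24.2% in knockout). With anchors extended by 5 kb, 1.60% were found again. With the motif near a start site, its odds ratio was 1.04. With 50 identical bases, 58.3% in knockout and 54.7% in control of pairs with at least 2 PETs shared a stretch.

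Alternatives chosen after seeing the data were 2. Without satellite and mitochondrial anchors, 6 loci and 0 chromosomes were higher, 0.932% were found again and 8.27% of control pairs with at least 2 PETs shared 100 bases. With every overlapping anchor counted, 0 loci were lower and 1 was higher. The gene lists moved beyond their interval in 32 of 143 values. With at least 2 PETs, where few pairs remain, histones stood at 12.9%, splicing factors at 18.9%, nucleolar proteins and the Ronin list at 20% each, ribosomal protein genes at 21.3%, the genes of the study's loci at 55.6%, the proteasome at 66.7% and olfactory receptors at 100%. Olfactory receptors stood at 15% without anchors over 30 kb. With the authors' adjusted p under 0.05, histones stood at 57.4% and ribosomal protein genes at 37.0%.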
